A study of Mus musculus with 10 samples.

Results

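The 10 genes described here encode plasma proteins that the liver secretes: Alb, Afp, Ahsg, Trf, Ttr, Rbp4, Fga, Fgb, Fgg and F2. They are 10 of 18069 genes that have a probe with a single gene symbol on the array, and they were chosen by name. All 10 have such a probe and all 10 entered the test. Ahsg has a pair of such probes and is reported by the brighter one, with the other beside it.

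Hepatocytes make most of the protein of blood plasma, and the genes for it are switched on by liver-enriched transcription factors of the HNF1, HNF4, FOXA and C/EBP families. Several of these genes are also active in the visceral endoderm of the yolk sac, which supplies plasma proteins to the embryo before the liver does, and Afp falls silent in the liver after birth. Ttr is also made by islet cells and by the choroid plexus, Rbp4 by adipocytes, and Trf by oligodendrocytes.

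The study asked how forced expression of Pdx1 and Ngn3 changes mouse embryonic stem (ES) cells that were led into endoderm, the germ layer of both liver and pancreas. Total RNA was measured on 1-colour arrays in 5 groups of 2 arrays. The first 2 groups are day 13 embryoid bodies (EBs) of the Ainv18 mouse ES cell line with a doxycycline (Dox) inducible Pdx1-IRES-Ngn3 cassette, without Dox (Dox(-) EBs) or with 1 µg/ml Dox from day 4 (Dox(+) EBs). The others are βTC6 cells, a mouse insulinoma line, whole islets, and embryonic pancreas at E15.5. Both EB groups had 50 ng/ml activin A from day 2, then 50 ng/ml BMP4, 10 ng/ml bFGF and 50 ng/ml activin A from day 4, and were replated on day 6. EBs are mixed cultures, and fewer cells of a type cannot be told apart from less RNA per cell in them. Another label of the EB arrays names activated Notch4 as the inducible gene. No mouse strain is given, and the labels give no age for the islets. The study's text calls them adult, while its supplement heads their values as E15.5. The labels number the arrays of a group as biological replicates without naming separate cultures or animals, so that the p-values cover the spread between these samples, technical or not.

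Levels are given as multiples of the median probe of each array, so that 1 is a probe of middle brightness, and levels under 0.27 were set to 0.27. From 66.0% to 74.3% of the probes of an array were above background, and net signal at the median probe was 1.66 to 2.63 times its background. The probe for Pdx1 was at background on all 4 EB arrays, that for Ngn3 (Neurog3) lay between 0.447 and 0.557 on them, and that for Notch4 between 0.637 and 0.877. On the arrays of βTC6 cells, islets and E15.5 pancreas, the Pdx1 probe read 0.281 to 0.776 and the Ngn3 probe 0.431 to 0.687. The probes for Pdx1 and Ngn3 were thus dim in all 5 groups, and whether these probes read the cassette is not known. The arrays of the EB groups come from slides of 1 number range, those of βTC6 cells and islets from another and those of E15.5 pancreas from another again, so that slide range and tissue cannot be told apart in comparisons across these ranges. The islet arrays carried a strong signal of exocrine cells: 9 acinar marker genes summed to 1904 to 2132 there, against 966 to 994 in E15.5 pancreas and 5.11 to 26.9 in the EBs. The 10 islet endocrine markers summed to 1473 to 1679 in islets.

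Most of these liver genes fell with Dox. Of the 10 genes, 7 were lower in Dox(+) than in Dox(-) EBs (Alb, Afp, Ahsg, Trf, Fga, Fgb and Fgg) and 2 were higher (Ttr and F2), while Rbp4 was saturated in both groups and had no measured order. Over all 28109 probes tested with limma at an adjusted p under 0.05, 22.4% were lower and 20.7% were higher. The median log2 difference of the 10 genes was -2.48, and that of all probes was -0.03. Which of these genes remained above the pancreatic samples after Dox differed from gene to gene, as described below.

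**Figure D1:**
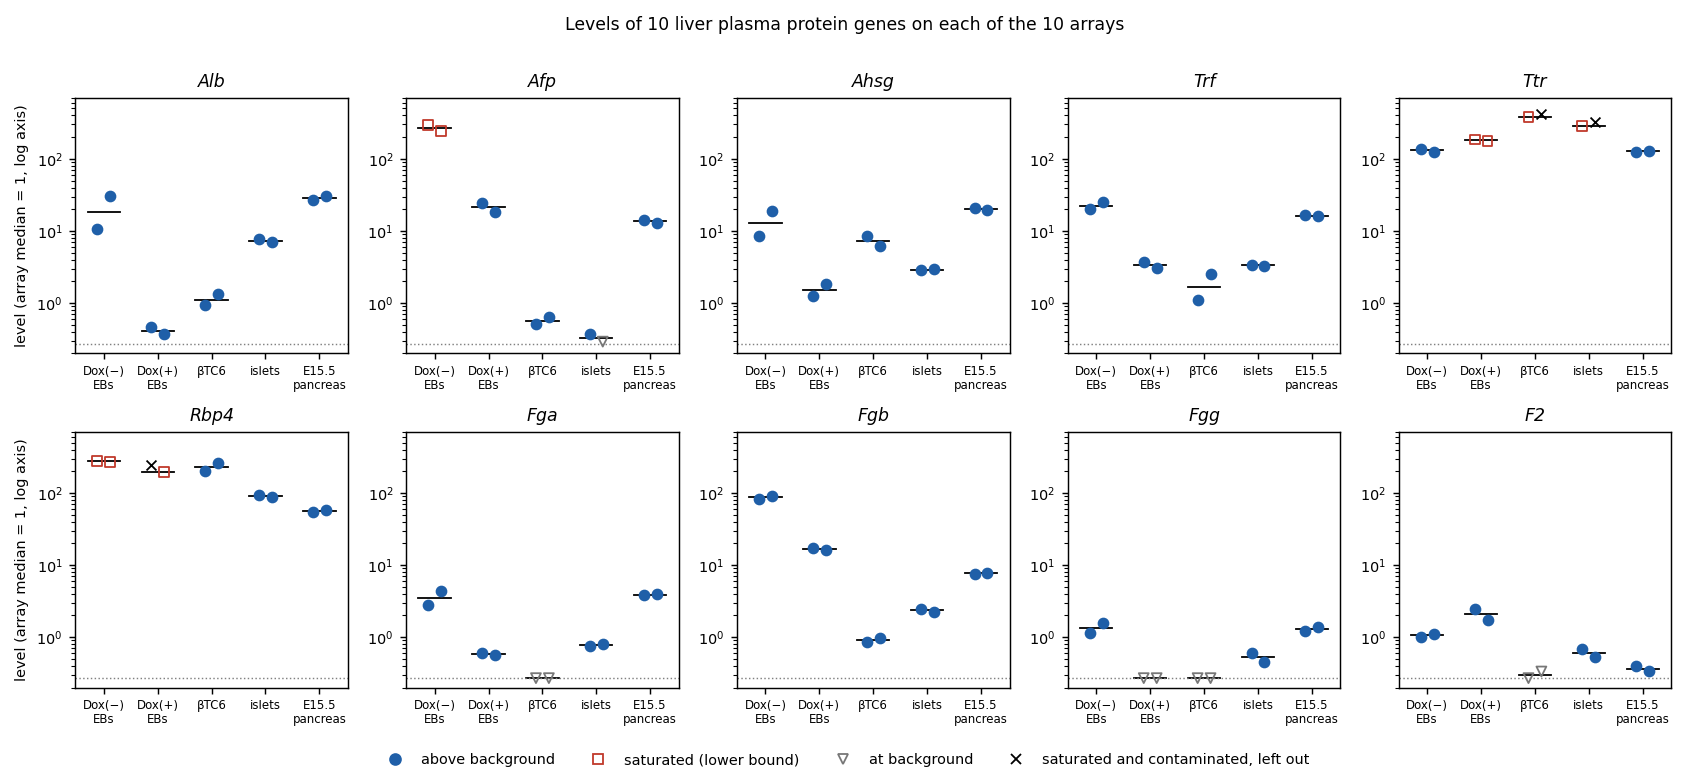
Level of each gene on each array (vertical log axis, in multiples of the array median) in the 5 groups, with 2 points per group and a bar at the mean of the log2 levels used. Red squares were saturated and are lower bounds, grey triangles were at background, crosses were saturated and contaminated and left out, and the floor of 0.27 is dotted. Alb lay at 10.7 and 30.5 in Dox(-) EBs and under 0.5 in Dox(+) EBs, whereas Ttr stayed above 100 in every group.

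The stretches of 150 bases just before the RefSeq transcript starts of 6 of the genes are shown because the results turn on these genes, of which all but F2 fell with Dox. They are from build GRCm38.p6, written 5′ to 3′ on the strand of the gene. Capitals mark matches to GTTAAT, a half-site of HNF1, or to TTGCNNAA, a core of C/EBP sites, each searched on both strands. The matches of the 2 motifs did not overlap in any of these genes. The motifs were chosen after these sequences had been seen, so that no excess over other promoters can be read from their counts.
Alb, chr5:90460720-90460869, plus strand: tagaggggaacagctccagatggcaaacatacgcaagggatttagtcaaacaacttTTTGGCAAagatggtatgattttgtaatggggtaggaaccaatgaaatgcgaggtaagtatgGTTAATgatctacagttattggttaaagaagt
Afp, chr5:90490564-90490713, plus strand: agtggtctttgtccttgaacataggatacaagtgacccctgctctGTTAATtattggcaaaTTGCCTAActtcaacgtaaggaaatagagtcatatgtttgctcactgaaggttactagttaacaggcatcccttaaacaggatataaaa
Fga, chr3:83026003-83026152, plus strand: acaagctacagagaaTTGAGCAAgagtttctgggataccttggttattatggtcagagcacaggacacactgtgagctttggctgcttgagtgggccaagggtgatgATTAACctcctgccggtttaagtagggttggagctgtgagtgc
Fgb, chr3:83049864-83050013, minus strand: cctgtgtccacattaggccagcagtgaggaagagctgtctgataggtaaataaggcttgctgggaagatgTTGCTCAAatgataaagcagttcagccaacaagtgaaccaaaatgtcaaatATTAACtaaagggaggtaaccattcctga
Fgg, chr3:83007574-83007723, plus strand: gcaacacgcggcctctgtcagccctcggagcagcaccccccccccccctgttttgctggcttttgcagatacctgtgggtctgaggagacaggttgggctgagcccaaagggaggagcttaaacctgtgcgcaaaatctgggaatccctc
F2, chr2:91636458-91636607, minus strand: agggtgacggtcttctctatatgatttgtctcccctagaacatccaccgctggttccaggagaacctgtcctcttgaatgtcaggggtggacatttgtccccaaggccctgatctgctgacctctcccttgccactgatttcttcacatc

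Alb, Afp, Fga and Fgb, all lower with Dox, hold both motifs. F2, which was higher with Dox, holds neither, and Fgg, which was lower, holds neither as well. Over the 250 bases before the start, GTTAAT is in 4 of the 8 genes searched and TTGCNNAA in 6. As a description, 6.43% of 32851 mouse promoters of the same length hold the first and 9.56% the second. Ahsg and Rbp4 hold the C/EBP core without the HNF1 half-site, and for Rbp4 the match lies before 1 of 2 annotated starts. A match is a string of letters and says nothing of binding. Trf and Ttr were not searched.

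**Figure D2:**
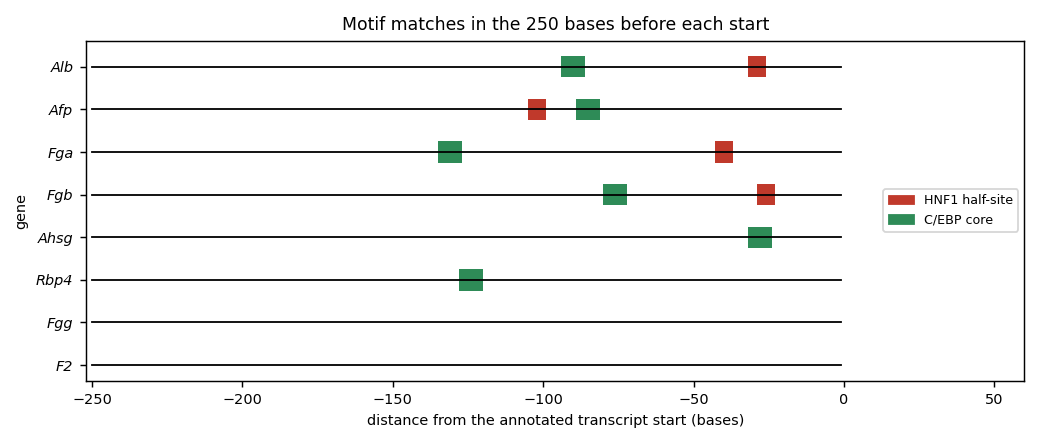
Matches to the HNF1 half-site (red) and the C/EBP core (green) in the 250 bases before the transcript start of 8 genes (horizontal axis, distance from the start in bases). Alb, Afp, Fga and Fgb hold both, Ahsg and Rbp4 hold the C/EBP core, and Fgg and F2 hold neither.

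Alb, at chr5:90460870-90476602, encodes albumin, the main carrier and osmotic protein of plasma. Dox(-) EBs read 10.7 and 30.5 for it, and Dox(+) EBs 0.463 and 0.373. βTC6 cells read 0.945 and 1.32, islets 7.66 and 6.98, and E15.5 pancreas 26.7 and 30.7. Dox(+) EBs were therefore the lowest of the 5 groups and overlapped with none. The level was 43.5-fold lower with Dox (log2 -5.44 with a standard error of 0.37, adjusted p = 9.34e-07 by limma), with a 95% interval from -6.27 to -4.61. The size depends on the Dox(-) arrays, with a log2 difference of -4.68 without replicate 2 and -6.20 without replicate 1. Dox(+) EBs were also 69.0-fold below E15.5 pancreas, 17.6-fold below islets and 2.69-fold below βTC6 cells (adjusted p = 0.00638 from limma for βTC6). The call against βTC6 cells was lost without replicate 2 of Dox(+) EBs, where the log2 difference was -1.27 in place of -1.43, and also with normexp (-0.85), with a floor of 1 (-0.20) and without the filter on background. Dox(-) EBs and E15.5 pancreas, the 2 highest groups, were not told apart (log2 difference -0.67, adjusted p = 0.152 from limma).

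The Dox(-) arrays differed more for Alb than for nearly any other probe. Replicate 2 was 2.86-fold above replicate 1, a difference as large as which was found in 0.0717% of 27897 probes, and the median probe differed by 1.09-fold. Ahsg was 2.18-fold higher on the same array at the brighter probe and 2.80-fold at the other, Fga was 1.52-fold higher and Fgg 1.38-fold. Afp was 1.21-fold higher on replicate 1, where both spots were saturated. Without replicate 2 of Dox(-) EBs, Alb, Ahsg and Fga were lower in Dox(-) EBs than in E15.5 pancreas (log2 differences -1.42, -1.24 and -0.46), and without replicate 1 none of them was.

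Afp, which lies next to Alb at chr5:90490714-90508907, encodes α-fetoprotein, the fetal relative of albumin. Dox(-) EBs read 293 and 242, saturated on both arrays, and Dox(+) EBs 24.3 and 18.6. βTC6 cells read 0.506 and 0.633, islets 0.371 and 0.292, where replicate 2 was at background, and E15.5 pancreas 14.3 and 13.0. No groups overlapped, and the order was Dox(-) EBs, Dox(+) EBs, E15.5 pancreas, βTC6 cells and islets, with every neighbour told apart. The level was at least 12.5-fold lower with Dox (log2 -3.65 with a standard error of 0.17, adjusted p = 5.66e-08 by limma). Unlike Alb, it stayed above all pancreatic samples: 1.56-fold above E15.5 pancreas, 37.6-fold above βTC6 cells and 64.6-fold above islets. The difference from E15.5 pancreas (log2 0.64, adjusted p = 0.00847 from limma) was no longer called without replicate 1 of Dox(+) EBs (0.44) or replicate 2 of E15.5 pancreas (0.57). Nor was it called without the filter on background.

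Ahsg, at chr16:22892015-22899451, encodes fetuin-A, a plasma inhibitor of calcification. At its brighter probe Dox(-) EBs read 8.59 and 18.8, Dox(+) EBs 1.27 and 1.84, βTC6 cells 8.48 and 6.09, islets 2.86 and 2.93, and E15.5 pancreas 21.0 and 19.6. Dox(+) EBs were the lowest group here too, and the Dox(-) range did not overlap with theirs. The level was 8.30-fold lower with Dox (log2 -3.05 with a standard error of 0.31, adjusted p = 1.85e-05 by limma). The other probe read 3.25 and 9.10 in Dox(-) EBs and was at background in Dox(+) EBs, at least 20.1-fold lower (log2 difference -4.33, adjusted p = 3.3e-06 from limma). It was at background in βTC6 cells as well, where the brighter probe was higher than in islets, so that the probes disagree on βTC6 cells and the level of Ahsg in that line is uncertain. In islets the other probe read 1.64 and 1.47, and in E15.5 pancreas it read 9.52 and 10.7. At that probe Dox(+) EBs were at least 5.75-fold below islets (log2 difference -2.52, adjusted p = 8.07e-05 from limma). The brighter probe's difference between Dox(+) EBs and islets (log2 -0.92, adjusted p = 0.0211 from limma) lost its call without replicate 1 of Dox(+) EBs (-0.65) or either islet array (-0.94 and -0.90). That call was also lost with normexp (-0.78), with a floor of 1, without the filter on background, and with the filter on all arrays.

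Trf, at chr9:103208876-103230286, encodes transferrin, which carries iron to cells. Dox(-) EBs read 20.0 and 25.1, Dox(+) EBs 3.70 and 3.09, βTC6 cells 1.10 and 2.49, islets 3.38 and 3.30, and E15.5 pancreas 16.5 and 15.9. Dox(-) EBs and E15.5 pancreas formed a high pair, and the islet arrays lay within the range of Dox(+) EBs. The readings of the high pair did not overlap. Their difference was not called in the main fit (log2 0.47, adjusted p = 0.192 from limma), although the call was made without either βTC6 array. The level was 6.62-fold lower with Dox (log2 -2.73 with a standard error of 0.29, adjusted p = 2.81e-05 by limma). The 95% interval of the difference between Dox(+) EBs and islets ran from -0.63 to 0.66 around 0.02. Dox(+) EBs were above βTC6 cells (log2 1.03, adjusted p = 0.0096 from limma), a call lost without replicate 1 of Dox(+) EBs (0.90). The same call was also lost with a floor of 1, without the filter on background, and with these 2 groups alone in the fit. The βTC6 arrays differed, and the difference of Dox(+) EBs from βTC6 cells was 0.44 without replicate 1 and 1.62 without replicate 2 of βTC6 cells.

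Ttr encodes transthyretin, a carrier of thyroid hormone and of the retinol complex with Rbp4. Dox(-) EBs read 136 and 126, Dox(+) EBs 186 and 179, and E15.5 pancreas 124 and 131. βTC6 cells read 382 and islets 290, each on the 1 array used, since the other spot (421 and 327) was marked contaminated and left out of the fit. All spots of Dox(+) EBs, βTC6 cells and islets were saturated, so no order was measured among these 3 groups. The Dox(-) range did not overlap with the Dox(+) range, and Dox(+) EBs were at least 1.39-fold higher (log2 0.48 with a standard error of 0.08, adjusted p = 0.00168 by limma). Dox(-) EBs overlapped with E15.5 pancreas (log2 difference 0.04, 95% interval -0.15 to 0.23).

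Rbp4, at chr19:38116620-38125321, encodes the retinol carrier of plasma. Dox(-) EBs read 280 and 271, both saturated, and the 1 array of Dox(+) EBs used read 193, saturated too, while the other spot (244) was marked contaminated. βTC6 cells read 204 and 264, islets 93.8 and 87.9, and E15.5 pancreas 54.7 and 57.5. Islets and E15.5 pancreas were the 2 lowest groups and did not overlap with the others. Since both EB groups were saturated, the Dox difference has no measured order. Dox(+) EBs were at least 3.43-fold above E15.5 pancreas and at least 2.12-fold above islets (adjusted p = 3.9e-06 and 8.82e-05 from limma). With 1 array of Dox(+) EBs, these p-values take their spread from the other groups and assume that Dox(+) EBs vary like them.

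Fga, Fgb and Fgg encode the α, β and γ chains of fibrinogen, the precursor of the clot. The 3 genes form a cluster on chromosome 3, with Fgg at chr3:83007724-83015056, Fga at chr3:83026153-83033627 and Fgb at chr3:83042246-83049863, and their chains are assembled in equal numbers. All 3 were lower with Dox, with 95% intervals of the log2 difference from -2.99 to -2.19 for Fga and from -2.60 to -2.13 for Fgb. Fgg was at background with Dox, so that the floor sets its difference and its size cannot be set beside theirs.

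For Fga, Dox(-) EBs read 2.84 and 4.30, Dox(+) EBs 0.603 and 0.558, islets 0.745 and 0.807, and E15.5 pancreas 3.88 and 3.91, and βTC6 cells were at background. Dox(-) EBs spanned the E15.5 pancreas values. The level was 6.02-fold lower with Dox (log2 -2.59 with a standard error of 0.18, adjusted p = 1.05e-06 by limma). Dox(+) EBs and islets were not told apart (log2 difference -0.42, adjusted p = 0.0604 from limma), although the call was made without either Dox(-) array or with these 2 groups alone in the fit.

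For Fgb, Dox(-) EBs read 81.9 and 92.0, Dox(+) EBs 17.4 and 16.3, βTC6 cells 0.847 and 0.988, islets 2.47 and 2.26, and E15.5 pancreas 7.63 and 7.65. All 5 groups stood apart, in the order Dox(-) EBs, Dox(+) EBs, E15.5 pancreas, islets and βTC6 cells. It was 5.15-fold lower with Dox (log2 -2.37 with a standard error of 0.11, adjusted p = 4.17e-08 by limma), yet remained 2.20-fold above E15.5 pancreas, 7.11-fold above islets and 18.4-fold above βTC6 cells. Like Afp, Fgb stood in Dox(-) EBs above every other group, here 11.4-fold above E15.5 pancreas.

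For Fgg, Dox(-) EBs read 1.13 and 1.55, islets 0.609 and 0.458, and E15.5 pancreas 1.20 and 1.37, and all 4 arrays of Dox(+) EBs and βTC6 cells were at background. It was at least 4.90-fold lower with Dox (log2 -2.29 with a standard error of 0.20, adjusted p = 5.68e-06 by limma), with a difference of -3.10 at a floor of 0.1 and of -0.40 at a floor of 1, where the call was lost. Dox(-) EBs overlapped with E15.5 pancreas (log2 difference 0.05, 95% interval -0.40 to 0.49). The Fgb chain was thus far above E15.5 pancreas in Dox(-) EBs, while no difference from it was called for Fga and Fgg.

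F2, at chr2:91612397-91636457, encodes prothrombin, whose active form thrombin cuts fibrinogen. Dox(-) EBs read 1.00 and 1.11, Dox(+) EBs 2.42 and 1.76, islets 0.685 and 0.535, and E15.5 pancreas 0.400 and 0.337, and both arrays of βTC6 cells were at background. Dox(+) EBs were the highest of the 5 groups and overlapped with none. The level was 1.95-fold higher with Dox (log2 0.97 with a standard error of 0.21, adjusted p = 0.00343 by limma), so prothrombin moved in the direction opposite to all 3 fibrinogen chains. With the 2 EB groups alone in the fit the same difference did not pass. Dox(+) EBs were 5.62-fold above E15.5 pancreas (adjusted p = 2.43e-06 from limma).

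**Figure D3:**
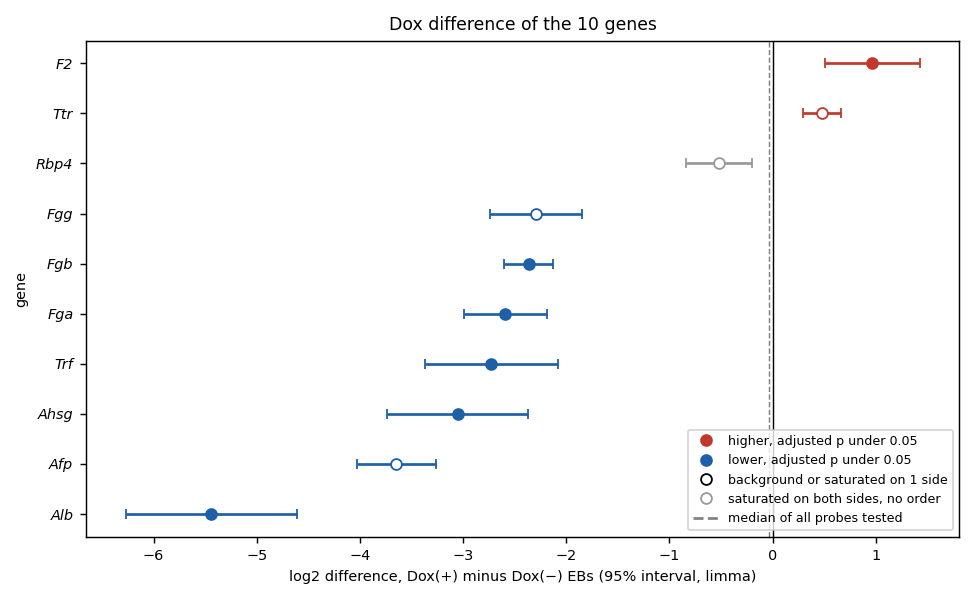
Log2 difference of each gene between Dox(+) and Dox(-) EBs (horizontal axis) with its 95% interval from limma, over 2 arrays per group except 1 for Rbp4 in Dox(+) EBs. Blue genes were lower and red genes higher at an adjusted p under 0.05, open circles rest on saturated or background spots, and the dashed line is the median of all probes at -0.03. Alb lies at -5.44, the bounded differences of Afp and Fgg at -3.65 and -2.29, and F2 and Ttr lie right of 0.

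Against the pancreatic samples, the 2 EB groups differed in which genes stood out. Dox(+) EBs were above E15.5 pancreas for 5 of the 10 genes (Afp, Ttr, Rbp4, Fgb and F2; 33.1% of all probes tested were higher) and below it for the other 5 (26.9% of all probes lower). Dox(-) EBs were above E15.5 pancreas for 4 (Afp, Rbp4, Fgb and F2; 33.5% of all probes) and below it for none (24.8% of all probes), while the 6 others did not pass the test. The second probe of Ahsg was called lower there (log2 difference -0.89, adjusted p = 0.0486 from limma), where the brighter probe was not (-0.68). These 2 comparisons share the pancreas arrays. The median log2 difference of the 10 genes was -0.87 for Dox(+) and 0.26 for Dox(-) EBs, against 0.07 and 0.09 for all probes.

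Against islets, Dox(+) EBs were higher for Afp, Rbp4, Fgb and F2 (4 of 10, with 36.4% of all probes higher) and lower for Alb, Ahsg and Fgg (3 of 10, with 31.6% of all probes lower). Dox(-) EBs were higher than islets for 9 of the 10 genes (37.6% of all probes) and lower for Ttr (at least 2.22-fold, with 32.3% of all probes lower). Against βTC6 cells, Dox(+) EBs were higher for Afp, Trf, Fga, Fgb and F2 (5 of 10, with 25.5% of all probes higher) and lower for Alb and Ahsg (2 of 10, with 37.2% of all probes lower). Ahsg rests there on the probe that the other probe contradicts. Dox(-) EBs were higher than βTC6 cells for 8 genes (28.7% of all probes) and lower for Ttr (at least 2.92-fold, with 37.7% of all probes lower), and Rbp4 did not pass. Ttr rests on 1 saturated array in islets and in βTC6 cells, so that these calls take the spread of those groups from the others. Afp was at least 809-fold above islets and at least 470-fold above βTC6 cells in Dox(-) EBs.

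Among the pancreatic samples, islets were below E15.5 pancreas for 7 of the 10 genes (32.5% of all probes) and above it for Ttr, Rbp4 and F2 (3 genes, 32.4%). βTC6 cells were below E15.5 pancreas for 7 (23.7%) and above it for Ttr and Rbp4 (2 genes, 41.5%). Against islets, βTC6 cells were lower for 6 (27% of all probes) and higher for Afp, Ahsg and Rbp4 (3 genes, 39%), where Ahsg again rests on the brighter probe. E15.5 pancreas thus read above both islets and βTC6 cells for Alb, Afp, Ahsg, Trf and all 3 fibrinogen chains.

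**Figure D4:**
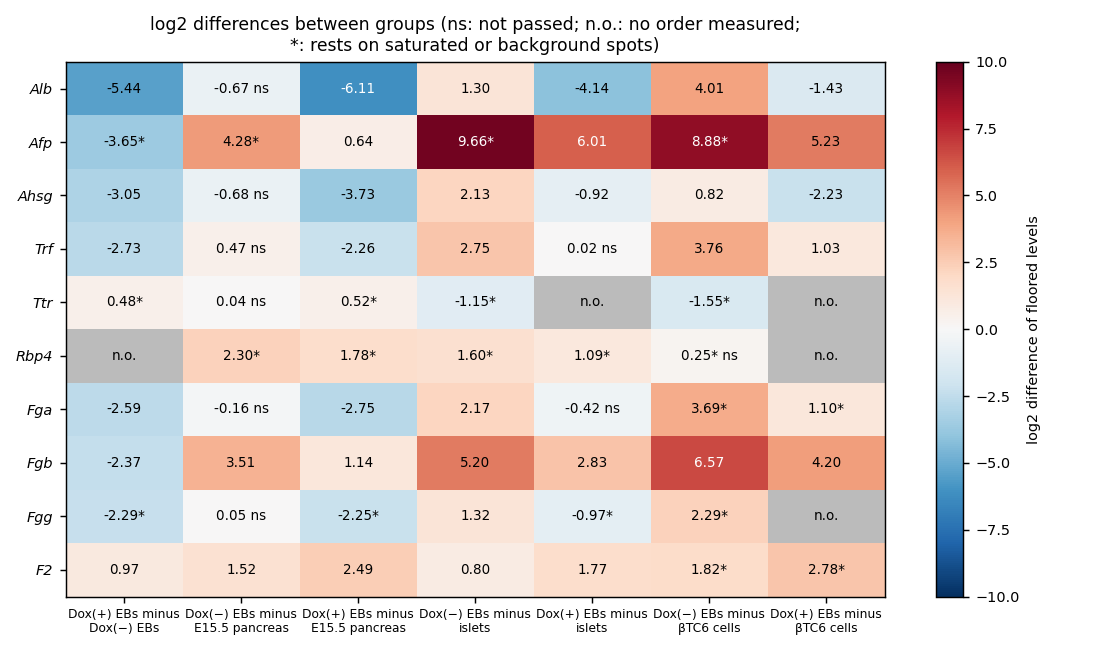
Log2 difference of each gene (rows) in 7 comparisons of the EB groups with each other and with the pancreatic samples (columns, first group minus second), red for higher and blue for lower, with 2 arrays per group except 1 for Ttr in βTC6 cells and islets and 1 for Rbp4 in Dox(+) EBs. Cells marked ns did not pass the limma test, grey cells marked n.o. had no measured order, and an asterisk marks differences that rest on saturated or background spots. Afp and Fgb stay red against all 3 pancreatic samples in both EB groups, whereas Alb and Ahsg are blue against all 3 in Dox(+) EBs.

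When the 5 groups were ranked by level for each gene, 26 of 40 neighbouring pairs were told apart, 10 were not and 4 had no measured order. The same count was not made over all probes, so it cannot be read as particular to these genes. The 10 genes did not share 1 order of groups. Over the log2 levels of the 10 arrays, which share their groups, the closest pairs were Trf and Fga (Pearson r = 0.97), Fga and Fgg (0.96), Afp and Fgb (0.96), and Alb and Fgg (0.95), all with n = 10. Floored and saturated readings entered these values. Fga was at the floor in βTC6 cells, Fgg in βTC6 cells and Dox(+) EBs, and Afp was saturated in Dox(-) EBs. Alb and its neighbour Afp had r = 0.28, and Fga and Fgb had 0.69. Ttr ran against Trf (r = -0.92 over the 8 arrays with a Ttr value), with saturated spots kept at their reading.

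Outside the 10 genes, the patterns most like that of Alb over 10 arrays were those of Gpr182 (r = 0.98), Krtcap3 (0.97), F5 (0.97), Helz2 (0.96) and Dhrs3 (0.96). For F5, coagulation factor V, Dox(-) EBs read 2.25 and 2.53, Dox(+) EBs 0.609 and 0.488, and E15.5 pancreas 2.08 and 2.22. The patterns most like that of Ttr were those of 5031425E22Rik (r = 0.997), Tmem163 (0.99), 1110020A21Rik (0.99), 4930452A19Rik (0.99) and 8430432A02Rik (0.99). For Tmem163, a zinc transporter, Dox(-) EBs read 7.86 and 7.89, Dox(+) EBs 19.6 and 18.3, and βTC6 cells 134 and 129. Ttr was saturated on 6 of the 10 arrays, its contaminated spots included, and these readings entered the ranking as they were.

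Other genes of the same pathways moved in both directions with Dox. The counts below stand beside 22.4% of all probes lower and 20.7% higher, and the medians of the log2 difference beside -0.03 for all probes. Of 21 other liver plasma protein genes tested, 9 were lower, 3 were higher and 9 did not pass or had no order (median -0.38). Serpina10, which inhibits factor Xa, went from 5.79 and 5.26 to 0.812 and 0.783 (log2 difference -2.79). Afm, the albumin relative beside Afp, went from 0.898 and 1.02 to background. Serping1, the C1 inhibitor, rose from 4.55 and 5.03 to 23.6 and 17.7, and Agt, angiotensinogen, from 1.79 and 1.87 to 7.06 and 5.71.

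Of 17 genes of the clotting cascade and its inhibitors, 10 were lower and 3 were higher (median -0.63). F10, the protease that activates prothrombin, fell from 9.34 and 10.2 to 2.99 and 2.44, and F3, tissue factor, fell from 4.43 on both arrays to 1.74 and 1.68. F2r, the thrombin receptor, rose from 2.79 and 2.48 to 5.67 and 5.14. The genes for prothrombin and for the thrombin receptor were thus both higher, and those for factors V and X, which turn prothrombin into thrombin, were both lower. Of 9 acute phase genes, 2 were lower (Saa3, log2 difference -2.95, and Socs3, -0.85), a share near the 22.4% of all probes, and none was higher (median -0.10), while Stat3 (0.14) and Saa4 (-0.53) did not pass.

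Of 14 hepatic transcription factors, 7 were lower and 2 were higher (median -0.70). Cebpa, a C/EBP factor of mature hepatocytes, fell from 3.98 and 4.69 to 0.496 and 0.411, a log2 difference of -3.26. Nr5a2 (-2.54) and Foxa1 (-1.36) fell as well, and Foxa2 rose from 3.02 and 3.21 to 11.1 and 10.0. Of 15 hepatocyte enzyme genes, 6 were lower and 2 were higher (median -0.40). Tdo2, which breaks down tryptophan, fell from 5.81 and 5.96 to 0.712 and 0.544, while Adh1 (-3.12) and Fah (-1.48) fell and Tat, tyrosine aminotransferase, rose at least 2.65-fold.

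Of 21 genes that handle iron and retinoids, 11 were lower and 4 were higher (median -0.36). Crabp1, which binds retinoic acid in the cell, rose from 2.58 and 2.50 to 34.8 and 42.9, whereas its relative Crabp2 fell from 11.8 and 12.9 to 2.91 and 3.46. Dhrs3, a retinal reductase, and Rxra, a retinoid receptor, fell as well (log2 differences -3.46 and -1.56). Of 10 genes for receptors and clearance of plasma proteins, 8 were lower and none was higher (median -1.60). Fcgrt, whose product returns albumin to the circulation, fell from 26.9 and 28.1 to 7.23 and 7.27. Cubn, the endocytic receptor cubilin, read 1.92 and 1.93 without Dox and was at background on the other 8 arrays, and Dab2 (-3.19) and the platelet integrin gene Itga2b (-4.45) fell too.

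**Figure D5:**
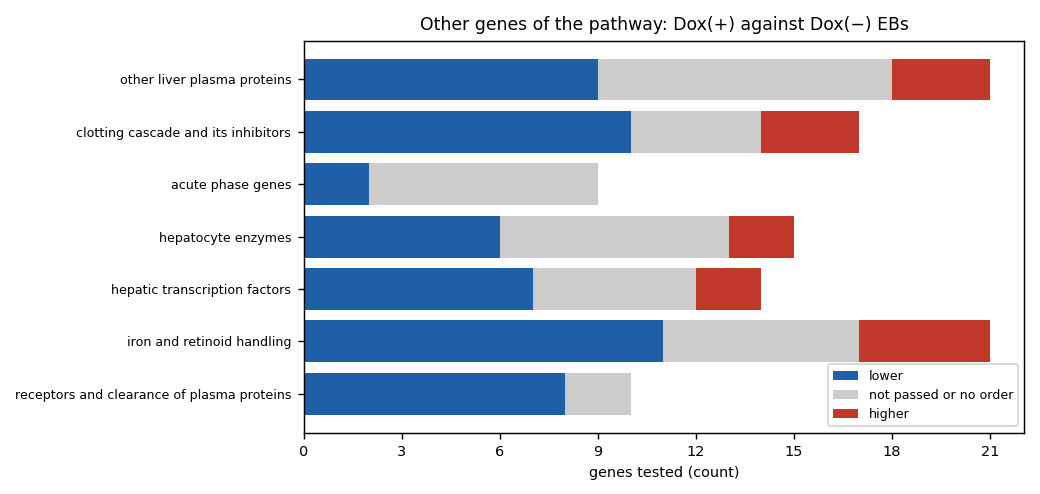
Number of genes tested in 7 lists of related genes (horizontal bars) that were lower (blue), higher (red) or neither (grey) in Dox(+) against Dox(-) EBs by limma. Lower genes outnumber higher genes in each list, with 8 of 10 lower among receptors and clearance genes and 2 of 9 among acute phase genes, where 22.4% of all probes were lower and 20.7% higher.

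Markers of other cell types moved beside the 10 genes. Beside these marker counts and those of the next paragraph, 22.4% of all probes tested were lower with Dox and 20.7% higher. Of 12 visceral endoderm markers, 10 were lower with Dox and 1 was higher, and they summed to 110 to 122 without Dox, 39.5 to 43.7 with it, 64.5 to 65.4 in E15.5 pancreas, and 20.7 to 25.9 in βTC6 cells and islets. Foxa3 read 8.26 on replicate 1 of Dox(-) EBs and had no value on replicate 2, so that the sum of 110 leaves it out. Of the 12 markers, Cubn was at background in Dox(+) EBs, and Amn, Cubn and Lrp2 were at background in E15.5 pancreas. The largest readings in E15.5 pancreas were those of Ctsh (19.3 and 19.8), Dab2 (12.3 and 12.8) and Foxa3 (9.94 and 10.3). Cubn, Lrp2 and Dab2 are also among the receptor and clearance genes above. Of 8 hepatocyte markers tested, 4 were lower and 1 was higher. Leaving out Alb and Ahsg, the 6 hepatocyte markers with a usable spot in the EBs summed to 18.9 to 26.8 without Dox and 16.1 to 18.6 with it. Of these, Tdo2 (log2 difference -3.24) and Serpinc1 (-1.88) were lower, Tat (1.43) was higher, and Apoa2 (0.03), Asgr1 (0.22) and Cyp2e1 (-0.40) did not pass. Of 6 macrophage markers, 5 were lower (summed level 15.3 to 17.4 without Dox and 2.30 to 2.56 with it). Adgre1 was at background with Dox, and Fcgr1 was at background in both EB groups and had no measured order. The 10 islet endocrine markers were all higher, from 7.52 to 7.53 up to 494 to 563. The part of these cell types in the changes of the 10 genes was not tested.

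For the genes also made elsewhere, the markers of those cells were as follows. Of 6 choroid plexus markers, 5 were tested, of which 2 were higher with Dox (Otx2 and Kl, from background to 1.47 and 1.54 and to 0.923 and 0.656) and 2 were lower (Clic6, log2 difference -2.28, and Aqp1, -0.47), with a median of 0.0. Kcnj13 and Lmx1a were at background in both EB groups. The summed level was 64.4 to 67.3 without Dox and 15.4 to 18.0 with it, most of it from Clic6. Of 7 adipocyte markers, Adipoq, Lep and Lipe were at background in all 5 groups, while Fabp4, Cidec and Pparg were above it on both arrays of every group. All 3 tested were lower with Dox (Fabp4, log2 difference -2.75, Pparg, -1.43, and Cidec, -0.50), and the list summed to 24.6 to 28.2 without Dox and 10.9 to 12.2 with it, and to 13.1 to 55.2 on the pancreatic arrays. Of 7 oligodendrocyte markers, Mog, Mobp, Olig1 and Olig2 were at background in both EB groups, and none of the 3 tested passed the test with Dox. The part of these cells in the levels of Ttr, Rbp4 and Trf was not tested.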

How the data were processed

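Each of 5 groups had 2 samples, hybridised as total RNA to CodeLink Mouse Whole Genome arrays with 1 colour. The deposited values are intensities: the authors used CodeLink Expression Analysis 4.1.0.29054 to take each spot mean less its local background median, relative to the array median of 34967 discovery probes. The GeneSpring step in the methods was not repeated. Control spots (1260) were left out, contaminated, irregular and masked spots were dropped, and saturated ones served as bounds. Probes were named through the platform annotation and RefSeq (21615 with 1 symbol, 681 with several, 12671 with none). A gene with several probes is given by the one of highest mean log2 value.

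Levels floored at 0.27 were log2 transformed and fitted with limma 3.58.1 in R 4.3.3, with 1 mean per group over 10 arrays (5 residual degrees of freedom, median prior 5.22, trend and robust eBayes), over 28109 probes that exceeded background in 1 group or more on each of its arrays. Benjamini-Hochberg adjustment ran over all of them, with 0.05 as the threshold. A fold is "at least" where background limits the lower group, or saturation the higher one, on each array. No order is given where both were at background or the lower one was saturated. Folds are on the floored scale. Promoters are RefSeq's for GRCm38.p6, and 8 of the 10 genes were searched. Python 3.11.15 (numpy 2.4.6, pandas 2.3.3, matplotlib 3.10.9) made tables and figures, and the fit was tested on simulated data.

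The 10 genes, the lists and the tests were chosen with earlier results of these data known. Genes named beside the 10 are up to 4 per list, by smallest adjusted p for Dox, and the 5 most like Alb and Ttr, and the cell type markers named were picked after their values were seen. Alternatives tried were floors of 0.1 and 1, quantile normalization alone or after normexp (offset 50), no filter or a filter on all arrays, flagged spots kept, means over a gene's probes, eBayes without trend and robust weights, the compared groups alone, the replicate number as a block, and leaving out each array. The number of arrays limits the precision.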

Additional observations from a re-analysis of the deposited data

How the results depend on the processing

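The 7 genes lower with Dox stayed at 7 without each array in turn, and 1 to 2 were higher (Ttr was not tested without replicate 1 of βTC6 cells or of islets, where its other spot was left out). The filter on all arrays tested 4 of the 10 genes, so its counts are smaller by construction: 0 higher and 4 lower with Dox, 2 higher against βTC6 cells, 1 and 1 against islets, 1 and 3 for Dox(+) EBs against E15.5 pancreas, 1 higher for Dox(-) EBs against it, and 9 neighbours told apart in place of 26. With the EB groups alone in the fit, 1 gene was higher with Dox. A floor of 1 gave 3 higher and 1 lower against βTC6 cells, 1 lower against islets and 15 neighbours told apart. Normexp and no filter each gave 1 lower against βTC6 cells. Quantile normalization gave 1 lower for Dox(-) EBs against E15.5 pancreas. Over all probes, the calls with Dox also depended on the setting. The main fit called 5819 of 28109 probes higher and 6288 lower, and a floor of 1 called 4001 and 4375. The filter on all arrays called 3965 and 4756 of 18034, and the EB groups alone gave 4778 and 4975 of 28193. For the other comparisons no such counts are given here. The cause of the changes for the 10 genes was otherwise not tested.

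Without each array in turn, the counts ran from 4 to 5 higher and 1 to 2 lower against βTC6 cells, 3 to 4 higher and 2 to 4 lower against islets, 4 to 5 higher and 5 to 5 lower against E15.5 pancreas, 3 to 5 higher and 0 to 3 lower for Dox(-) EBs against E15.5 pancreas, and 21 to 28 neighbours told apart.

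Signs turned for differences near 0 or without a measured order. Trf against islets was -0.0698 with quantile normalization, -0.0607 with normexp, and -0.11 to 0.15 without each array. Rbp4 in Dox(+) EBs against βTC6 cells was 0.79 and 0.80 with the first 2. It was called higher with both, so that 6 genes were higher than βTC6 cells in place of 5. For Dox(-) EBs against E15.5 pancreas, Ttr was -0.0134 and -0.0135 with these and -0.0158 to 0.0893 without each array, where Alb ran from -1.42 to 0.0911, Fga from -0.46 to 0.14 and Fgg from -0.18 to 0.28.

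Arrays with the same replicate number did not deviate together (correlations from -0.071 to 0.065), and the main fit used no pairing. The labels do not say whether arrays of the same number share a culture run, and these correlations cannot decide it. With the replicate number as a block, 2 genes were higher and 7 lower with Dox, and 26 neighbours were told apart, as without it.

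Over the 10 genes, 5 comparisons and all alternatives that gave a value, 960 differences kept their direction and their side of the threshold, 24 lost the call, 9 gained it and 12 changed sign. Signal limits the sizes: saturated spots leave Afp, Ttr and Rbp4 with lower bounds, and spots at background limit Fga, Fgg and F2 in some groups.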
